A study of Danio rerio with 16 samples.

Results

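The genes described here are those whose symbols place them in 10 families of solute carriers that move amino acids, transmitters and related small molecules across membranes (SLC1, SLC3, SLC6, SLC7, SLC17, SLC18, SLC32, SLC36, SLC38 and SLC43). Membership was set by symbol, but the members were chosen with earlier results of these data known. Of 65 matching entries, 3 monoamine carrier genes (slc6a3, slc6a4a and slc18a2) were left out, and 62 of the 15304 genes of the table remained. One of the 62, slc7a6os, carries the symbol of a gene lying opposite slc7a6 and is no carrier itself. The question put to the set was which of its members share the male-high pattern of slc38a3a.

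Whole-brain RNA was sequenced from zebrafish of 4 strains at 17 weeks of age. AB and SH (Scientific Hatcheries) were bought from suppliers, and HSB (High Stationary Behavior) and LSB (Low Stationary Behavior) are lines founded from fish caught in the wild and selected on behavior. Each library held RNA pooled from 10 fish of the same strain and sex, with 2 pools per strain and sex, so that 8 groups gave 16 libraries (8 female, 8 male). The labels name no treatment and no engineered allele. By the paper's methods, some of the HSB and LSB fish had been through a behavioral test weeks before sampling, and none is named for AB or SH. The part of this testing in strain differences was not tested. A pool averages its fish, so the spread between pools understates that between individuals. Fewer cells of a type and less RNA per cell cannot be told apart in whole brain.

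In the nervous system, transmission by amino acids ends when carriers at the plasma membrane take up the transmitter. SLC1 proteins take up glutamate, and SLC6 proteins take up GABA, glycine, taurine, creatine and monoamines. Glutamine made by glia leaves through SLC38 carriers and re-enters neurons, where glutamate and GABA are formed again and loaded into vesicles by SLC17 and SLC32 proteins. SLC7 light chains pair with SLC3 heavy chains to exchange neutral and basic amino acids.

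Values are CPM, the reads on a gene scaled so that all genes of a library sum to 1000000. They are not corrected for gene length, so levels are compared between libraries and not between genes. The libraries held between 18398865 and 35737825 reads on genes, with a median of 28773428. Mean CPM over the libraries ran from 2.07 (slc6a4b) to 2833 (slc1a2b), with a median of 42.3 over the members. All differences below are on the log2(CPM + 0.5) scale, and tests are those of limma, which fits a model of strain plus sex gene by gene, with Benjamini-Hochberg adjustment over all 15304 genes and a threshold of 0.05.

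LSB female pool 2 stood apart from the other libraries. Its weight, estimated from how well each library followed the model, was 0.166, against 0.605 to 1.77 in the other libraries. The median absolute deviation of the members from their strain mean was 0.0983 log2 in it and 0.0407 to 0.0873 in the others. In that library 4 members (slc6a8, slc6a17, slc7a4 and SLC6A13) deviated by more than 0.5 log2, and in no other library did any member do so. Sex differences are also given for the 14 libraries that remain without both LSB pools numbered 2. LSB male pool 2 was left out as well, although its weight of 0.797 lay within the range of the others. The 14 libraries are thus not the removal of the outlying library alone.

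The gene slc38a3a encodes a system N carrier that in mammals moves glutamine in and out of astrocytes. Its CPM was 340 and 380 in the AB female pools and 415 and 433 in the AB male pools, and 386 and 415 against 458 and 488 in SH. In HSB it was 417 and 465 in females against 499 and 525 in males, and in LSB 401 and 339 against 443 and 408. In each of the 4 strains both male pools lay above both female pools, although the sexes overlapped across strains. The mean was 393 ± 42.0 in females and 459 ± 41.8 in males (SD, n = 8 pools each), a difference of 0.23 log2 (SE 0.04), or 0.22 (SE 0.03) in the 14 libraries. Within AB, SH, HSB and LSB the difference was 0.24, 0.24, 0.22 and 0.21. Since this gene was named for the pattern, these values are a description and no test is given for them. By strain, which the choice did not use, its mean was 477 ± 46.5 CPM in HSB, 437 ± 45.2 in SH, 398 ± 43.5 in LSB and 392 ± 41.3 in AB (SD, 4 pools each). HSB exceeded AB by 0.28 log2 (SE 0.06, limma adjusted p = 0.00194), LSB minus HSB was -0.26 (SE 0.06, limma adjusted p = 0.00335), and SH exceeded AB by 0.16 (SE 0.06, limma adjusted p = 0.0372). Neighbours in this order, HSB and SH, SH and LSB, and LSB and AB, did not differ past the threshold. No second copy, slc38a3b, was among the entries.

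**Figure D1:**
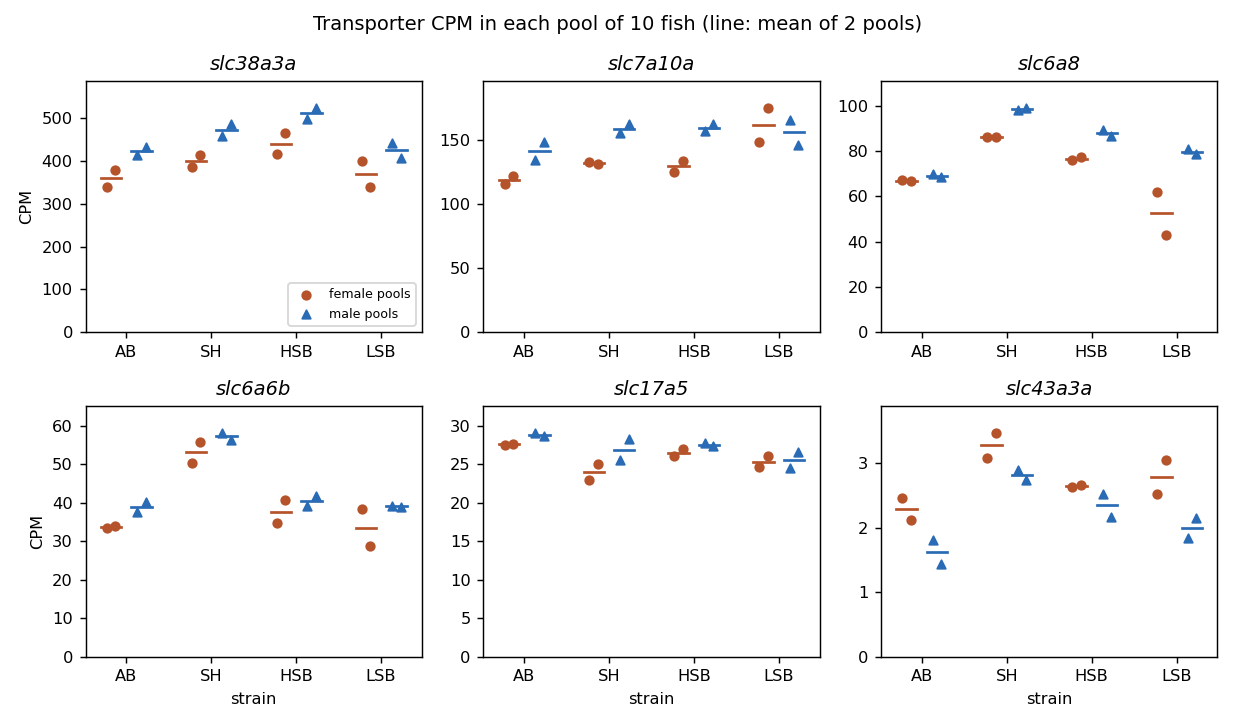
CPM (vertical axis, from 0) of 6 transporter genes in each pool, by strain (horizontal axis) and sex; points are pools of 10 fish and short lines are means of 2 pools. Male pools lie above female pools of the same strain for slc38a3a and slc6a8 in all 4 strains, while slc43a3a shows the reverse in all 4.

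In AB, SH and HSB, both male pools lay above both female pools for 4 of the 62 members (slc38a3a itself, slc6a8, slc7a10a and slc17a5), or 6.45%, beside 1.40% of all genes. Without slc38a3a, which set the pattern, the count was 3 of 61 (4.92%). With LSB required as well, 2 members were left (slc38a3a and slc6a8). The reverse order, both male pools below both female pools in these 3 strains, was seen for 1 member, slc43a3a, beside 1.99% of all genes.

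The limma test called no member different between the sexes in the 16 libraries (0 of 62, beside 0.0392% of all genes). At an unadjusted p under 0.05, 12 members were past the threshold. Of these, 10 were higher in males, 16.1% of the members beside 4.50% of all genes, and 2 were lower in males, 3.23% beside 5.66%. The 10 include slc38a3a, without which they were 9 of 61 (14.8%). In the 14 libraries 12 were higher (19.4%, beside 4.25% of all genes) and 6 lower in males (9.68%, beside 6.85%). The 12 higher in males include slc38a3a, without which they were 11 of 61. In the 14 libraries the test called 3 members (4.84%, beside 0.523% of all genes), which were slc38a3a, slc7a10a and slc6a8, all higher in males. The share of 4.84% includes slc38a3a, whose call adds nothing, since the gene was named for this difference. Apart from it, only slc7a10a and slc6a8 were called. The sign alone also leaned to males: 44 members (71%) had the higher fitted level in males, against 49.0% of all genes, and without the LSB pools numbered 2 the shares were 61.3% and 41.1%. With slc38a3a left out, 43 of 61 members (70.5%) were higher in males in the 16 libraries and 37 (60.7%) in the 14. The median difference over the members was 0.0419 log2 in the 16 libraries, 0.0252 in the 14 and 0.0154 in the 12 of AB, SH and HSB, and over all genes it was -0.0019, -0.0130 and -0.0191. In 13 members (21.0%) the difference was positive in every strain, against 6.06% of all genes. The 13 include slc38a3a, which set the pattern. Some of their differences were very small, such as 0.0008 log2 for SLC6A11 in AB and 0.0039 for slc7a4 in HSB.

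**Figure D2:**
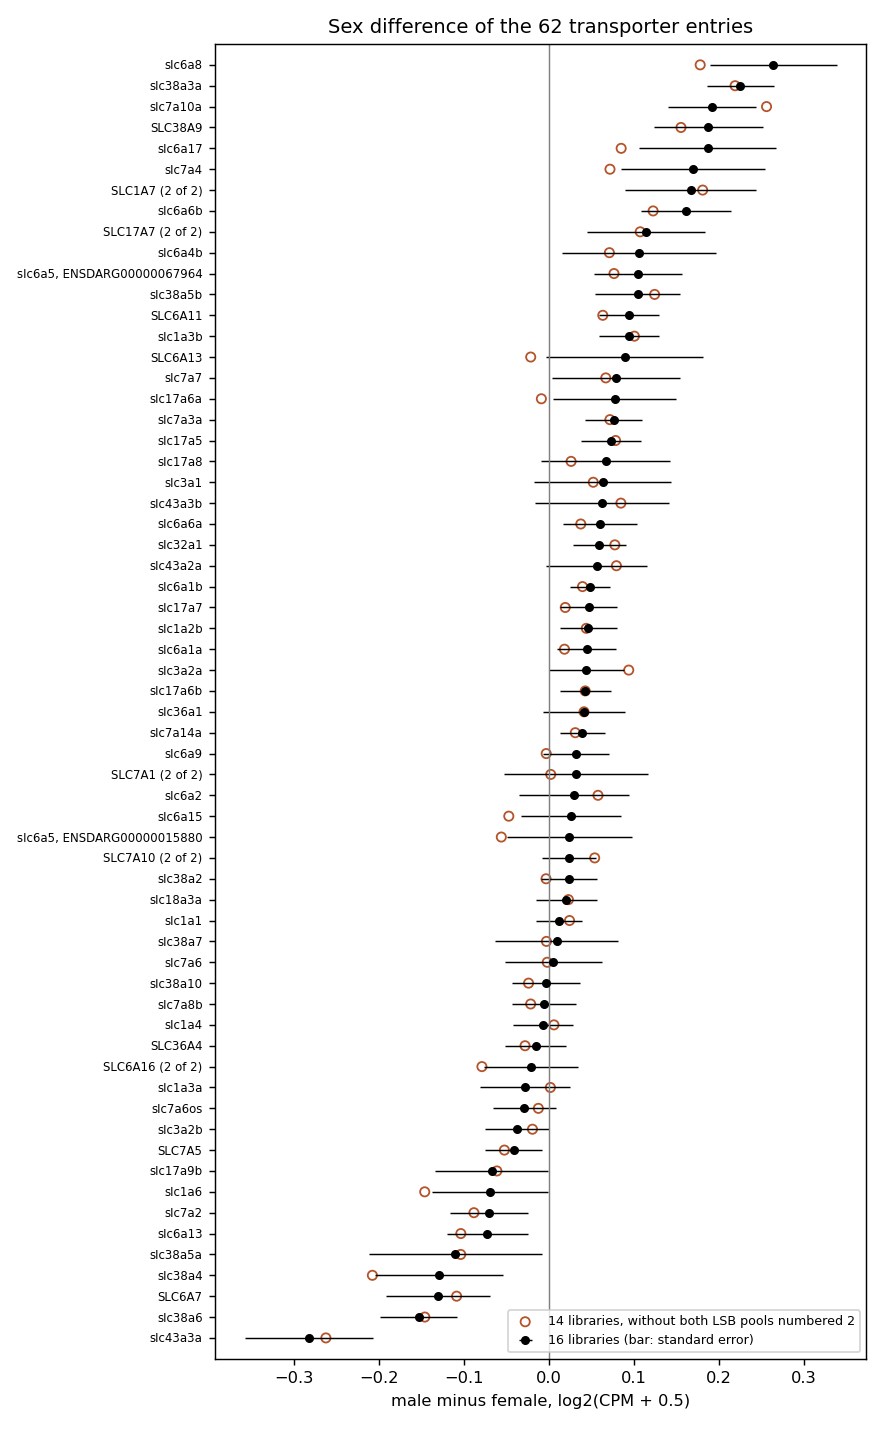
Male minus female difference on the log2(CPM + 0.5) scale (horizontal axis) for each of the 62 entries, ordered by size; filled points are the 16 libraries with the standard error as bar, and open circles the 14 libraries without the LSB pools numbered 2. Of the 62 filled points, 44 lie above 0, and slc6a8, slc38a3a and slc7a10a have the largest values.

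Among the other members, slc7a10a was the nearest to slc38a3a in sex pattern outside LSB. It encodes a light chain that in mammals exchanges small neutral amino acids, D-serine and glycine among them. Its CPM was 116 and 122 in AB females against 134 and 149 in AB males, 133 and 131 against 155 and 163 in SH, and 125 and 134 against 157 and 163 in HSB. In LSB it was 149 and 175 in females against 166 and 146 in males. The sexes were thus separate in 3 strains and overlapped in LSB, where the highest value of all was that of female pool 2. The lowest LSB value was that of male pool 2, which the 14 libraries also leave out. Over 16 libraries the difference was 0.19 log2 (SE 0.05, limma adjusted p = 0.214), from 136 ± 18.7 in females to 154 ± 10.6 in males (SD, 8 pools each). It was 0.26 (SE 0.03, limma adjusted p = 5.16e-04) in the 14 libraries and 0.27 (SE 0.03, limma adjusted p = 7.59e-04) in the 12 libraries of AB, SH and HSB. By strain, slc7a10a was highest in LSB, at 159 ± 13.9 CPM, and lowest in AB, at 130 ± 14.6 (0.29 log2, SE 0.07, limma adjusted p = 0.00871). Another gene of the kind, SLC7A10 (2 of 2), had a sex difference of 0.02 (SE 0.03) that was not called (limma adjusted p = 0.810), and it was called between strains (limma adjusted p = 0.00123).

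Creatine enters cells through the product of slc6a8. Its CPM was 67.1 and 67.0 in AB females against 69.8 and 68.5 in AB males, 86.3 and 86.4 against 98.1 and 99.1 in SH, and 75.9 and 77.7 against 89.5 and 86.8 in HSB. In LSB it was 62.1 and 42.9 in females against 81.1 and 78.6 in males. Male pools were higher in every strain, by little in AB and by most in LSB, where female pool 2 was the lowest library. The difference was 0.26 log2 (SE 0.07, limma adjusted p = 0.238) over 16 libraries, 0.18 (SE 0.04, limma adjusted p = 0.0335) over the 14 and 0.14 (SE 0.03, limma adjusted p = 0.0430) over the 12.

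Taurine, an abundant inhibitory amino acid of fish brain, is taken up by the products of slc6a6a and slc6a6b. The CPM of slc6a6b was lowest at 28.7, with a median of 36.6 and a highest value of 55.9, in the 8 female pools, and 37.5, 39.7 and 58.2 in the 8 male pools. The sexes overlapped over strains. Within strains both male pools were above both female pools in AB, SH and LSB but not in HSB. The difference was 0.16 log2 (SE 0.05), past an unadjusted p of 0.05 but not called (limma adjusted p = 0.307), and 0.12 (SE 0.04, limma adjusted p = 0.255) in the 14 libraries. The slc6a6a difference was 0.06 (SE 0.04; 0.04, SE 0.04, in the 14), and it was not called (limma adjusted p = 0.633).

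Among the glutamate and GABA uptake genes, none was called for sex in the 16 or the 14 libraries. The glial glutamate carrier gene slc1a3b ranged from 176 through a median of 215 to 249 CPM in females and from 193 through 221 to 268 in males, a difference of 0.09 log2 (SE 0.03, limma adjusted p = 0.364) and 0.10 (SE 0.04) in the 14 libraries. The sexes overlapped over strains, while within AB and within LSB both male pools lay above both female pools. For SLC6A11, which encodes a GABA carrier, the values were 317, 357 and 401 in females and 327, 385 and 433 in males, with a difference of 0.09 (SE 0.04, limma adjusted p = 0.375) and 0.06 (SE 0.03) in the 14 libraries. Male pools were apart from female pools for it in HSB and LSB and not in AB or SH. SLC1A7 (2 of 2), a copy of the gene for a glutamate carrier known in mammals from the retina, was at 1.79, 2.44 and 3.62 CPM in females and 2.37, 2.75 and 3.83 in males, a difference of 0.17 (SE 0.08, limma adjusted p = 0.485) and 0.18 (SE 0.09) in the 14 libraries. Its male pools were apart from the female pools in SH, HSB and LSB. For slc1a2b, which encodes a glial glutamate carrier, and slc6a1b, which encodes a neuronal GABA carrier, the differences were 0.05 log2 each (SE 0.03 and 0.02), with limma adjusted p = 0.630 and 0.503, and 0.04 each (SE 0.03 and 0.02) in the 14 libraries.

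Among carriers within cells and for other amino acids, SLC38A9 encodes a lysosomal protein that in mammals senses arginine for growth signalling. Its CPM was 4.56, 5.82 and 7.09 (lowest, median, highest) in females and 5.51, 6.66 and 7.98 in males, a difference of 0.19 log2 (SE 0.06, limma adjusted p = 0.334) and 0.16 (SE 0.07) in the 14 libraries. Male and female pools overlapped in AB, SH and HSB, and a difference of the same sign was found in each strain. The synaptic vesicle carrier gene slc6a17, whose product loads neutral amino acids, was at 116, 208 and 253 in females and 201, 217 and 276 in males. Its difference of 0.19 (SE 0.08, limma adjusted p = 0.440) became 0.09 (SE 0.03, limma adjusted p = 0.336) in the 14 libraries. The 116 was that of LSB female pool 2. For slc7a3a, a cationic amino acid carrier gene, the values were 164, 186 and 198 in females and 177, 193 and 208 in males, with a difference of 0.08 (SE 0.03, limma adjusted p = 0.453) and 0.07 (SE 0.03) in the 14 libraries. The lysosomal sialic acid carrier gene slc17a5, which was in the 3-strain count above, was at 23.0, 26.04 and 27.7 in females and 24.5, 27.5 and 29.1 in males. Its difference was 0.07 (SE 0.04, limma adjusted p = 0.505), or 0.08 (SE 0.04) in the 14 libraries, and within strains the pools overlapped in LSB alone.

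At an unadjusted p under 0.05, 2 members went the other way in the 16 libraries and 6 in the 14. slc43a3a belongs to a family of facilitated carriers, and in mammals the protein of this name moves purine bases. It was at 2.47 and 2.11 CPM in AB females against 1.81 and 1.43 in AB males, 3.08 and 3.47 against 2.90 and 2.73 in SH, and 2.63 and 2.66 against 2.53 and 2.16 in HSB. In LSB it was 2.53 and 3.05 against 1.83 and 2.15. Both male pools were below both female pools in each of the 4 strains, and the difference was -0.28 log2 (SE 0.08, limma adjusted p = 0.212), or -0.26 (SE 0.08) in the 14 libraries. The slc38a6 gene, a relative of slc38a3a, had 10.2, 13.4 and 15.6 CPM in females and 10.0, 11.6 and 15.6 in males. Its difference was -0.15 (SE 0.05, limma adjusted p = 0.265), or -0.15 (SE 0.05) in the 14 libraries, and the sexes overlapped in SH. The other 4 members lower in males in the 14 libraries were slc38a4, slc1a6, slc6a13 and SLC6A16 (2 of 2), none of them called. The difference of slc38a4, a neutral amino acid carrier gene, was -0.13 log2 (SE 0.07) in 16 libraries and -0.21 (SE 0.06, limma adjusted p = 0.166) in the 14. That of slc1a6, a glutamate carrier gene, was -0.07 (SE 0.07) and -0.15 (SE 0.05, limma adjusted p = 0.222).

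By role group, the number higher in males in the 16 and then the 14 libraries was 5 and 4 of 5 vesicular glutamate genes, 3 and 3 of 3 taurine and creatine genes, 3 and 1 of 3 glycine uptake entries and 4 and 3 of 5 GABA uptake genes. It was 4 and 5 of 6 plasma membrane glutamate uptake genes, 2 and 1 of 4 neutral amino acid SLC6 genes, and, slc38a3a aside, 4 and 2 of 8 SLC38 genes. The remaining groups, with 1 to 6 members each, are in the plot of all sex differences. Over all genes the shares were 49.0% and 41.1%, and differences between groups were not tested.

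Likeness to slc38a3a was measured as the Pearson correlation over the 16 libraries of log2 values from which each gene's strain mean had been taken off. It describes how genes moved together in libraries that share depth and pools, and carries no p. The sex difference stays in these values, so likeness is not separate from the counts by sex given above. Of the other 61 members, 6 (9.84%) reached 0.7, against 1.40% of all other genes. These were slc6a6b (0.86), SLC38A9 (0.85), slc7a3a (0.77), SLC17A7 (2 of 2) (0.73), slc6a8 (0.72) and slc1a3b (0.70), and the next member was slc7a14a at 0.69. In the 14 libraries 9 members (14.8%) reached it, against 2.04%, and slc7a10a went from 0.64 to 0.95 while SLC17A7 (2 of 2) fell below 0.7, to 0.66. SLC17A7 (2 of 2), a copy of the gene for a vesicular glutamate carrier, had a sex difference of 0.11 (SE 0.07, limma adjusted p = 0.583).

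**Figure D3:**
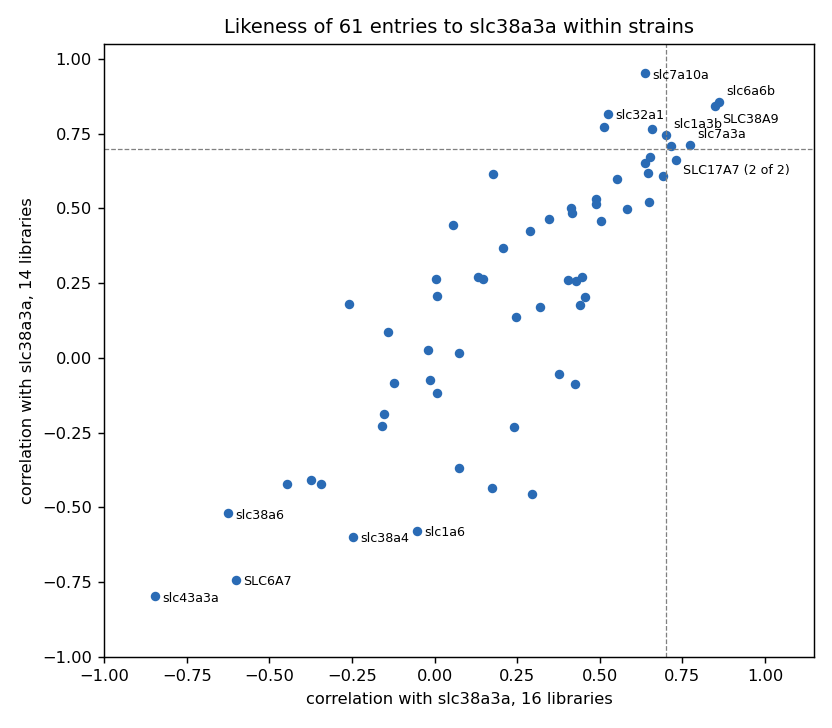
Correlation with slc38a3a, after each gene's strain mean was taken off, in 16 libraries (horizontal axis) and in 14 libraries without the LSB pools numbered 2 (vertical axis) for 61 entries, with dashed lines at 0.7; points are single entries. Of the entries, 6 lie to the right of 0.7, 9 lie above it, and slc7a10a lies highest at 0.95.

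The least like members were slc43a3a (-0.85), slc38a6 (-0.63) and SLC6A7 (-0.60), a proline carrier gene. The median correlation was 0.32 for the members, 46 of 61 being positive, and 0.01 for all genes. The genes of the whole table most like slc38a3a were DLC1, PPP1R12B, pacs2 and asap2a (0.92 each), slc4a2a (0.89) and cltca (0.88), none a member.

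Oligodendrocyte markers moved with sex beside the members. Of 9 listed markers, 9 were higher in males and 8 had an unadjusted p under 0.05. The limma test called 1 (myrf) in 16 libraries and 6 in the 14. For 8 of the 9, both male pools lay above both female pools in AB, in SH and in HSB. The share was 6.45% of the members and 1.40% of all genes. Their correlation with slc38a3a over the 16 libraries ran from 0.14 (mbpa) to 0.815 (myrf), with a median of 0.49. Their summed CPM was 26646 to 52143 in females and 29657 to 44489 in males. The mean log2 of the sums, with no constant added and no model fitted, was higher in males by 0.10. Most of the sum was mbpa, with means of 29000 CPM in females and 30270 in males. It had the smallest difference of the 9, 0.08 log2 (SE 0.06, limma adjusted p = 0.635). In AB, SH and HSB the sum of each male pool exceeded that of each female pool, and in LSB the 44531 and 52143 of females exceeded the 43975 and 41658 of males. None of the 9 markers was at 0. The part of these cells in the transporter differences was not tested. In contrast, 3 of 6 radial glia and 3 of 7 neuron markers were higher in males, and none was called. In each of these lists 1 marker was lower in males at an unadjusted p under 0.05. The 3 listed skeletal muscle markers, which brain should lack, summed to 9.36 to 153 CPM in females and 10.4 to 696 in males, the highest being AB male pool 2.

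Of the other genes of these pathways, 9 of 14 enzymes of the glutamate and glutamine cycle were in the table. Of these, 7 were higher in males (5 in the 14 libraries), and 0 were called by limma (1 at an unadjusted p under 0.05). That gene was got1, a transaminase that forms glutamate, at 128 ± 7.35 CPM in females and 138 ± 6.14 in males (SD, 8 pools each). The glutamine synthetase genes glula and glulb lay lower in males by -0.06 and -0.12 log2 (SE 0.05 and 0.07) and were not called. Of the 3 enzymes of GABA synthesis and breakdown listed out of 5, 2 were higher in males and 0 were called, with none at an unadjusted p under 0.05. In the response to amino acid shortage, for which many carriers are known targets, 6 of 20 entries were higher in males (9 in the 14 libraries). Of the 20 entries 0 were called, with 2 (eif4ebp1 and cebpg) lower at an unadjusted p under 0.05. Over all genes 49.0% were higher in males in the 16 libraries and 41.1% in the 14.

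The test for a sex difference that differs between strains called no member (limma interaction, 0 of 62, beside 0.0327% of all genes). At an unadjusted p under 0.05 there were 15 (24.2%), against 16.6% of all genes. The smallest were slc6a6a (limma adjusted p = 0.163) and SLC6A13 (limma adjusted p = 0.163). The 15 include all 4 members that deviated by more than 0.5 log2 in LSB female pool 2 (SLC6A13, slc6a8, slc6a17 and slc7a4). Without LSB female pool 1 the interaction count was 11 members, of 1947 genes called. LSB females are then represented by pool 2 alone, the library that stood apart, which is assumed to vary like the other groups, so nothing is read from that count.

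The limma test called 44 of 62 members (71%) between strains, beside 61.5% of all genes. Of these 44, 22 (50%) were highest in SH, against 46.4% of called genes, and 19 (43.2%) were lowest in LSB, against 37.1%. The libraries of the highest strain all lay above the other 12 for 14 members (beside 18.9% of all genes), and those of the lowest strain all lay below for 11 (beside 11.7%).

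Between pairs of strains the test called 29 members for SH over AB (36.8% of all genes), 12 for HSB over AB (18.6%), 23 for LSB over AB (25.8%), 29 for HSB over SH (32.7%), 33 for LSB over SH (49.0%) and 19 for LSB over HSB (21.9%). By direction, 20 were higher and 9 lower in SH than AB, beside 3493 and 2136 of all genes. In LSB against SH 5 were higher and 28 lower, beside 2528 and 4978 of all genes, which leaned the same way. When the libraries were rescaled by their median ratio, these member splits became 14 and 12, and 8 and 23. Of all genes then called, 2680 of 5460 were higher in SH than AB, and 3580 of 7209 in LSB than SH. The same rescaling moved the members for HSB against SH from 9 and 20 to 13 and 15, and for LSB against HSB from 4 and 15 to 5 and 11. Over all genes the splits before it were 1784 and 3225, and 1506 and 1846. After it, 2488 of 4763 and 1728 of 3462 called genes were higher in HSB than SH and in LSB than HSB.

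The widest range belonged to slc3a1, which encodes the heavy chain of a carrier that in mammals moves cystine and dibasic amino acids. Its CPM was 4.27, 3.70, 4.26 and 4.55 in AB, 6.86, 6.76, 7.35 and 5.17 in SH, 2.04, 2.07, 1.88 and 2.41 in HSB and 2.44, 2.97, 3.07 and 3.32 in LSB (female pools first). SH was above and HSB below every other library. HSB was 1.43 log2 below SH (SE 0.11, limma adjusted p = 2.48e-07).

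For slc7a2, a cationic amino acid carrier gene, CPM was 58.4, 59.5, 47.2 and 52.3 in SH. The strain means were 28.3 ± 0.830 in AB, 25.3 ± 1.77 in HSB and 25.7 ± 1.03 in LSB (SD, 4 pools). SH stood above the other 12 libraries, by 0.93 log2 over AB (SE 0.06, limma adjusted p = 6.98e-08), while HSB and LSB differed by 0.02 (SE 0.06).

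SH was also the highest strain for both taurine carrier genes. slc6a6b had 36.3 ± 3.16 CPM in AB, 55.2 ± 3.39 in SH, 39.1 ± 3.10 in HSB and 36.3 ± 5.09 in LSB, and slc6a6a had 170 ± 7.26, 254 ± 9.80, 203 ± 10.97 and 211 ± 23.5. SH exceeded AB by 0.60 (SE 0.08, limma adjusted p = 2.15e-05) and 0.58 log2 (SE 0.06, limma adjusted p = 5.01e-06). The lysosomal proton coupled gene slc36a1 had 55.8 ± 4.74 in SH against 40.1 ± 2.21 in AB, and all 4 SH pools lay above the other 12. The same separation held for slc6a17 (260 ± 11.2 in SH, 179 ± 44.8 in LSB) and slc7a4 (44.3 ± 2.54 and 31.2 ± 7.86), both lowest in LSB female pool 2, but not for slc6a8 (92.5 ± 7.09 and 66.2 ± 17.7). SH was highest without full separation for slc7a6, a light chain gene (9.46 ± 0.945 against 6.02 ± 0.271 in AB), for the cationic carrier gene SLC7A1 (2 of 2) (4.09 ± 0.689 against 2.58 ± 0.305 in HSB), for slc38a6 (15.3 ± 0.592 against 10.6 ± 0.841 in LSB) and for slc43a3a (3.04 ± 0.318 against 1.96 ± 0.440 in AB). AB was lowest for slc43a3b (5.62 ± 0.734 against 8.77 ± 1.04 in LSB) and highest for slc38a4 (51.5 ± 6.23 against 36.6 ± 4.36 in LSB).

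LSB was low for slc38a7, whose product in mammals exports glutamine from lysosomes. Its CPM was 33.4, 36.2, 35.4 and 35.0 in AB, 34.7, 35.3, 36.4 and 34.8 in SH, 30.5, 30.8, 30.1 and 30.1 in HSB and 16.8, 23.1, 16.1 and 24.7 in LSB. All LSB pools lay below the rest, and within LSB the pools numbered 1 of both sexes were lower than the pools numbered 2. LSB was 0.82 log2 below SH (SE 0.10, limma adjusted p = 1.61e-05).

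Of the 5 vesicular glutamate genes, 4 were called between strains, beside 61.5% of all genes. Of these 4, 3 were lowest in LSB, beside 37.1% of called genes. The gene not called, slc17a6a (limma adjusted p = 0.162), was also lowest in LSB. There its CPM was 174 in female pool 2 and 249 to 280 in the other pools. slc17a6b had 423 ± 22.2 CPM in AB, 452 ± 20.7 in SH, 413 ± 17.4 in HSB and 332 ± 6.78 in LSB, and LSB was 0.44 log2 below SH (SE 0.04, limma adjusted p = 1.32e-06). SLC17A7 (2 of 2) went from 19.98 ± 1.89 in SH to 11.2 ± 1.52 in LSB, a change of -0.81 (SE 0.10, limma adjusted p = 1.18e-05). The slc17a8 gene, for another carrier of this kind, was at 2.07 ± 0.319 in LSB against 2.94 to 3.38 in the other strains. In contrast, slc17a7 was called between strains (limma adjusted p = 1.97e-04) but was lowest in AB, at 128 ± 3.81 CPM, against 137 ± 10.6 in LSB. For slc1a6, known in mammals from Purkinje cells, HSB was low instead, with 25.9 ± 1.38 CPM against 40.5 ± 2.47 in AB, and HSB was 0.64 below AB (SE 0.10, limma adjusted p = 2.50e-04).

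**Figure D4:**
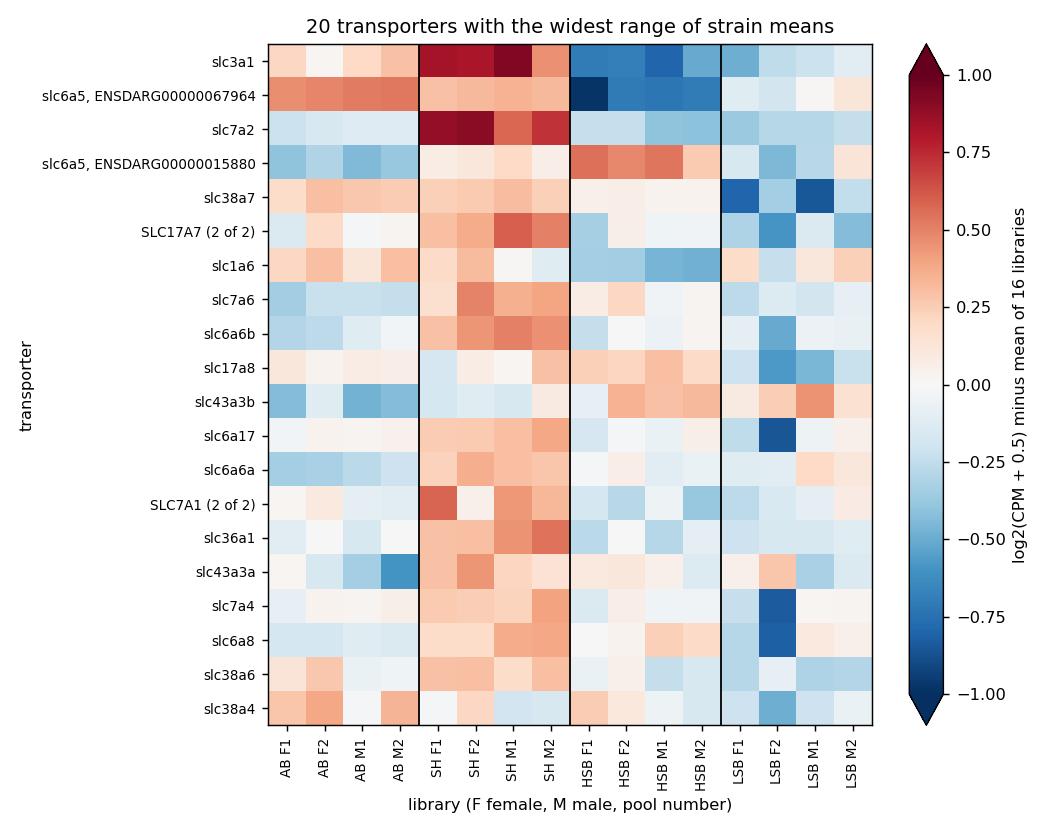
Log2(CPM + 0.5) of each of 20 transporters with the widest range of strain means, less its mean over the 16 libraries (colour; values beyond 1 or -1 are shown as the end colours), by library (columns, F female, M male, with pool number; vertical lines divide strains). Rows run from the widest range, slc3a1 (1.43), to slc38a4 (0.49), and many are high in the SH columns, among them slc3a1 and slc7a2.

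There were 2 entries named slc6a5, the gene of the glycine carrier of glycinergic neurons. ENSDARG00000067964 had 8.60, 8.75, 8.93 and 9.02 CPM in AB, 7.55, 7.76, 7.88 and 7.73 in SH, 2.84, 3.53, 3.48 and 3.55 in HSB and 5.57, 5.31, 6.13 and 6.68 in LSB. ENSDARG00000015880 had 5.22, 5.62, 5.06 and 5.29 in AB, 7.44, 7.64, 8.16 and 7.39 in SH, 10.5, 10.0, 10.4 and 8.53 in HSB and 6.26, 5.01, 5.72 and 7.76 in LSB. The first was lowest in HSB, below all other libraries, and the second highest there, above all others. HSB minus AB was -1.28 log2 for the first (SE 0.07, limma adjusted p = 7.66e-09) and 0.84 for the second (SE 0.10, limma adjusted p = 3.79e-05). Summed, the entries had 14.1 ± 0.263 CPM in AB, 15.4 ± 0.468 in SH, 13.2 ± 0.789 in HSB and 12.1 ± 1.71 in LSB, and HSB minus AB was -0.09 (SE 0.08, limma adjusted p = 0.449). Between strains as a whole the sum was called (limma adjusted p = 0.00728). The sum was added after the values were seen. How reads were shared between both entries is not known, so each entry's strain difference is uncertain as a difference in the gene.

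**Figure D5:**
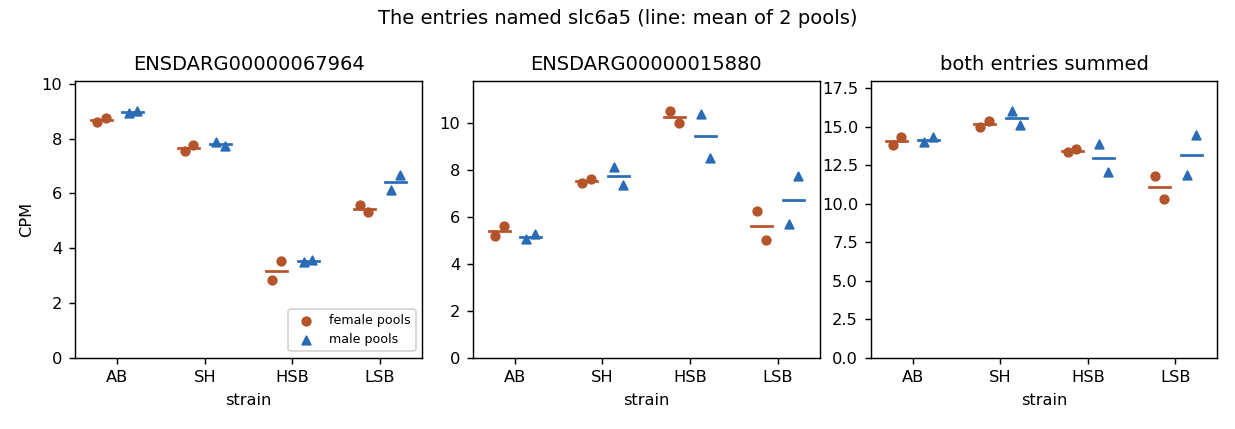
CPM (vertical axis, from 0) of both entries named slc6a5 and of their sum in each pool by strain; circles are female pools, triangles male pools and short lines means of 2 pools. HSB is lowest in the left panel and highest in the middle panel, while in the sum the strain means lie between 12.1 and 15.4.

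A similar caution holds for slc6a13 and SLC6A13, entries for GABA carriers that differ by name only in letter case. The strains differed for slc6a13 (limma adjusted p = 0.00273) and not detectably for SLC6A13 (limma adjusted p = 0.187), and whether these 2 entries differ from each other was not tested.

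The remaining named genes varied less. 18 members were not called between strains, and their ranges of strain means were 0.06 to 0.31 log2. Among them were slc32a1, which loads GABA and glycine into vesicles, with strain means of 438 to 469 CPM and a range of 0.10 (limma adjusted p = 0.215). slc18a3a, which loads acetylcholine, had means of 29.2 to 31.7 and a range of 0.12 (limma adjusted p = 0.138). The light chain gene SLC7A5 had means of 248 to 267 (0.11, limma adjusted p = 0.219), and the heavy chain slc3a2a ranged by 0.06 (limma adjusted p = 0.819). The other heavy chain, slc3a2b, was called, at 188 ± 13.5 CPM in AB and 216 ± 11.8 in LSB (limma adjusted p = 0.00731). slc38a2, a glutamine and alanine carrier gene, was highest in SH at 580 ± 22.5 CPM against 505 ± 33.6 in LSB (-0.20 log2, SE 0.05, limma adjusted p = 0.00225). slc43a2a, for large neutral amino acids, was at 70.0 ± 6.08 in SH and 86.4 ± 4.29 in HSB, and SLC36A4 at 48.1 ± 1.34 in LSB and 59.3 ± 2.71 in SH.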

How the data were processed

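The authors pooled total RNA, made single-end libraries, processed reads with CASAVA 1.7, aligned them to the zebrafish genome with GSNAP (build Zv9 in the submitters' processing notes), counted reads per gene with HTSeq and deposited CPM values, which sum to 1000000 per library, for 15304 genes. The authors used edgeR for their tests, and their paper reports more genes with a sex difference than limma called here in the 16 libraries. A gene not called here is therefore not shown to lack a sex difference. No further scaling between libraries was found in these deposited CPM values. Depth was read from the smallest steps of the CPM values, 0.0280 to 0.0544 CPM per read. All 16 columns were matched by strain, sex and pool number, and 0 columns belonged to other samples. Strandedness of counting was not given in the sources used here. P-values rest on the spread between pools that the model leaves. For the sex and strain tests that spread includes any sex difference that varies between strains.

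Values were analysed as log2(CPM + 0.5) with limma 3.58.1 (lmFit, eBayes with a trend) in R 4.3.3, and summaries with Python 3.11.15, pandas 2.3.3 and numpy 2.4.6. Figures used matplotlib 3.10.9. The model was also run on simulated data. The simulated sex changes were larger than the sex differences of the members, and no simulated library stood apart. That run therefore cannot show how well differences of the size seen here are found. Count models were not run. The members, the pathway and marker lists and the tests were chosen with earlier results of these data known. Named genes are slc38a3a, members past the adjusted threshold for sex or the interaction, and the 12 with the smallest unadjusted p for sex. They also include the 6 most and 3 least like slc38a3a and the 20 with the widest called strain range. The last are the member of highest mean CPM in each SLC family, not in each role group, and the 6 genes of the table most like slc38a3a. Also named, after their values were seen, are slc17a5, which completes a count, and other members whose values bear on these. Symbols and identifiers are those of the table. Replicate numbers were not treated as pairing pools, since the labels do not state a pairing. Alternatives were added constants of 0.1 and 1, median ratio scaling, a mean CPM minimum of 5, a replicate block, library weights, and leaving out libraries or LSB.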

Additional observations from a re-analysis of the deposited data

Results flagged for a closer look

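In 15 of 248 groups of 4 libraries of a strain (6.05%) the highest or lowest library lay far from the others for a member by Dixon's criterion, where chance gives about 1 in 20. Those of named members are as follows, in CPM. In AB, slc43a3b was high in female pool 2 (6.71), slc7a3a was high in male pool 2 (207.9), and slc6a17 (206.2) and slc7a6 (5.62) were low in female pool 1. In SH, SLC36A4 was high in female pool 2 (63.4) and slc38a6 was low in male pool 1 (14.4). In HSB, SLC38A9 (4.56), slc43a3b (6.92) and the slc6a5 entry ENSDARG00000067964 (2.84) were low in female pool 1. In LSB, slc38a6 was high (11.8) and slc6a6b low (28.7) in female pool 2, and slc18a3a was low in male pool 1 (29.3).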

How the results depend on the processing

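Of 1000 results under alternative settings, 978 kept their direction and side of the threshold, or stayed within 1.5 times a count. The count of members called for sex, 0 in 16 libraries, was 1 with a replicate block, 2 with library weights, 3 without both LSB pools numbered 2 and 3 without LSB, and leaving out single libraries gave 0 to 3 (3 without LSB female pool 2, 2 without LSB male pool 2, 1 without AB female pool 2 or LSB female pool 1). The 3 called without both LSB pools numbered 2 and the 3 without LSB each include slc38a3a, which was named for the pattern. With the replicate block, strain was called for 46 members and the interaction for 0. Pools with the same number deviated together to some degree in HSB but not in the same way in each strain. Over all genes the correlations of female with male deviations were 0.071 in AB, -0.09 in SH, 0.311 in HSB and -0.211 in LSB. The interaction count, 0, went from 0 to 11 when single libraries were left out, 11 being without LSB female pool 1, where LSB females are a lone outlying pool. The count of 4 members with separated male pools fell to 2 when LSB was required too. It was 4 to 6 when single libraries were left out (6 without HSB male pool 1). Leaving out a library can only keep or raise this count, so nothing is read from that range. The 6 members with a correlation of 0.7 to slc38a3a became 3 when no strain mean was taken off, and 3 to 9 when single libraries were left out, 3 being without LSB male pool 1. With both slc6a5 entries summed, HSB minus AB was -0.0928 log2 (SE 0.08, limma adjusted p = 0.449) and was not called. The sum is another quantity than ENSDARG00000015880 alone, whose HSB minus AB difference was called. HSB over SH gave 18 members without HSB male pool 1. The differences of slc7a10a and slc6a8 between the sexes were called in 5 and 3 of the alternatives. The cause of these changes was not tested. Strain, called for 42 to 47 members in all alternatives but the CPM minimum (39 of 54), depended least on the settings. With 2 pools per strain and sex, small differences in low-count members could not be told from pool spread.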
